A study of Mus musculus with 11 samples.

Results

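This account covers 8 genes of neurotrophin and GDNF-family signalling in J-RGCs, ganglion cells of the retina that respond to motion in a preferred direction and are known for the adhesion molecule JAM-B, the product of Jam2. The members are Bdnf, Ntf3, Ntrk2, Ntrk3, Ngfr, Ret, Gfra1 and Gfra2. They were chosen by symbol, as ligands and receptors of both families, and all 8 were among the 24421 genes counted in every library. The RNA came from Tbr1 KO mice and from WT mice, both on a mixed C57BL/6 and CD1 background and both taken at postnatal day 4-5. In both genotypes the cells carried a green fluorescent protein from a transgenic line described as specific to J-RGCs, were purified from retina by flow cytometry, and were lysed as pools of 100 cells. The sources used here do not give which part of Tbr1 the KO lacks, or whether the deletion is limited to some cells. Tbr1 encodes a T-box transcription factor, and the comparison asks which transcripts of this cell type depend on it. The 4 KO animals gave 6 libraries, with KO libraries 1 and 2 from animal a, 3 and 4 from animal b, 5 from animal c and 6 from animal d. The 4 WT animals gave 5 libraries, with WT library 1 from animal a, 2 and 3 from animal b, 4 from animal c and 5 from animal d.

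Neurotrophins are secreted proteins that act through Trk receptor tyrosine kinases and through p75, a receptor of the tumour necrosis factor receptor family. BDNF binds TrkB, NT-3 binds TrkC, and all neurotrophins bind p75. GDNF-family ligands bind a coreceptor of the GFRα family that is held at the membrane by a lipid anchor, and the pair then activates the Ret kinase. In the retina, BDNF acting through TrkB is known for supporting the survival and the arbor growth of ganglion cells, and Ret marks a subset of ganglion cells.

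Counts over genes ran from 8609845 to 34718693 per library, and 13897 to 15440 genes had at least 1 count. Libraries of the same animal were summed, so each comparison set 4 KO animals against 4 WT animals. Levels are CPM normalised by TMM, which corrects each animal's total by a factor from a trimmed mean of gene ratios between animals. Error terms are SDs over animals unless named otherwise. Tbr1 had 94.1 to 144 CPM in KO animals and 155 to 193 CPM in WT animals, with no overlap. Since reads from any exon left in place are counted, that level does not check the labels. The summed level of 12 ganglion cell markers was 12365 to 13838 CPM in KO animals and 11075 to 13207 CPM in WT animals. Nefl was the largest part in every animal. Thy1 had 259 to 359 CPM in KO and 382 to 458 CPM in WT. Pou4f2 had 124 to 199 CPM in KO and 264 to 294 CPM in WT. Both lay lower in every KO animal than in every WT animal, and the other markers of this list overlapped. Of 11 tested, 6 had a higher fitted level in KO, and none passed edgeR's test at an adjusted p under 0.05. Jam2 had 87.4 to 130 CPM in KO animals and 451 to 618 CPM in WT animals. Markers of other retinal cells were also counted. The sum of 13 photoreceptor markers was 67.6 to 1223 CPM in KO animals, highest in KO animal c, and 72.7 to 365 CPM in WT animals, with Opn1mw at 0. All 11 tested photoreceptor markers had a higher fitted level in KO, and none passed the edgeR test. The sum of 13 markers of Müller glia and progenitors was 478 to 769 CPM in KO animals and 344 to 470 CPM in WT animals, with no overlap. Of these markers, only Dkk3 and Clu lay higher in every KO animal than in every WT animal. Dkk3 had 240 to 291 CPM in KO and 125 to 190 CPM in WT. Clu had 92.3 to 117 CPM in KO and 54.0 to 65.5 CPM in WT. Sfrp2 lay lower in every KO animal, and the rest overlapped. Of 12 tested markers of this list, 11 had a higher fitted level in KO and 2 passed the edgeR test, against 0.287% of all tested genes. The mean log2 level of the list was 3.81 ± 0.589 in KO and 3.16 ± 0.702 in WT (exact permutation test over animals, p = 0.229). Over 5 horizontal cell markers the sum was 96.3 to 128 CPM in KO animals and 48.0 to 68.1 CPM in WT animals. These ranges did not overlap either. Most of each sum came from Sept4 and Calb1, the only markers of this list that lay higher in every KO animal. Onecut2 overlapped, with 2.67 to 10.7 CPM in KO and 0.927 to 9.37 CPM in WT. Onecut1 also overlapped, at 1.27 CPM or less in every animal, and Lhx1 was at 0. All 4 tested horizontal cell markers had a higher fitted level in KO, and none passed the edgeR test. Their list had a mean log2 level of 2.50 ± 0.156 in KO and 1.95 ± 0.285 in WT. The exact permutation test over animals gave p = 0.0286, the smallest that 4 against 4 animals allow. The sums were 30.2 to 60.2 CPM in KO animals and 23.9 to 61.7 CPM in WT animals over 8 amacrine markers, and 0.134 to 59.4 CPM in KO animals and 0.322 to 21.1 CPM in WT animals over 6 bipolar markers. Over 12 markers of astrocytes, vessels and microglia the sum was 12.6 to 25.7 CPM in KO animals and 16.1 to 61.3 CPM in WT animals, highest in WT animal a. The part of these cells in the members' values was not tested.

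No member passed the test for a change between Tbr1 KO and WT J-RGCs. Ntrk2, Ntrk3, Ret and Bdnf had the most reads and were counted in all 11 libraries, with genotype means that differed by less than the larger SD between animals, and Gfra2 was counted in all of them with fewer reads. Ngfr and Gfra1 were sporadic, and Ntf3 had no count in any library. Of the 7 members with enough reads to be tested, 3 had a higher fitted level in KO and 4 a lower one, with a median log2 fold change of -0.07, beside a median of -0.00071 over all 13957 genes tested. By edgeR's quasi-likelihood test, with p-values adjusted over all genes by the Benjamini-Hochberg method, the members' adjusted p ran from 0.892 to 0.984, and the lowest unadjusted p was 0.203. At an adjusted p under 0.05 the same test called 40 genes, or 0.287% of those tested, of which 12 (0.086%) were higher in KO and 28 (0.201%) lower. The animals of KO and WT overlapped for all 7 tested members. Of all tested genes, 5.06% showed no overlap, 2.58% with KO above WT and 2.48% with KO below, and 0 members had an unadjusted p under 0.05, against 7.09% of all tested genes. DESeq2 and limma voom also called 0 members. In such pools, fewer cells that express a gene and less RNA per cell cannot be told apart.

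**Figure D1:**
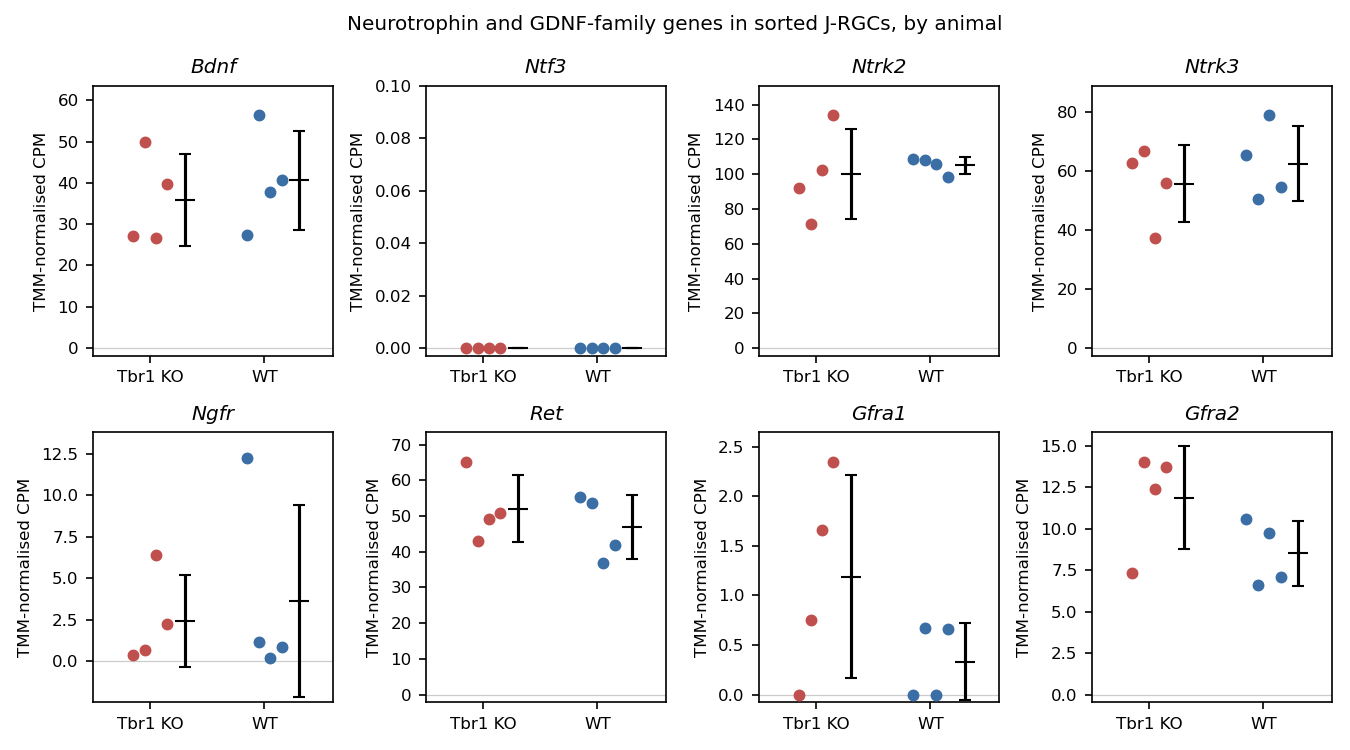
Level of each of the 8 members in TMM-normalised CPM (linear axes from 0, drawn lower where an SD bar reaches below 0), with 1 point per animal, 4 Tbr1 KO animals on the left and 4 WT animals on the right, and the mean with its SD beside them. The genotypes overlap for every member with counts; WT animal a stands alone for Ngfr at 12.2 CPM, and Ntf3 lies at 0 in all 8 animals.

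Bdnf encodes brain-derived neurotrophic factor, the ligand of TrkB, and lies on GRCm38 chromosome 2 from 109674700 to 109727007 on the plus strand. It had 27.1, 49.9, 26.7 and 39.8 CPM in KO animals a to d, against 27.4, 56.4, 37.9 and 40.8 CPM in WT animals a to d. The lowest animals of the genotypes, KO c and WT a, were nearly level, and animal b was the highest in each. Bdnf averaged 35.9 ± 11.1 CPM in KO animals and 40.6 ± 12.0 CPM in WT animals (SD, n = 4 each), a log2 fold change of -0.18 ± 0.27 (SE) with a 95% interval of -0.77 to 0.41. The edgeR test with Benjamini-Hochberg adjustment gave an adjusted p of 0.969. Its 11 annotated transcripts start from alternative first exons and all code for the same mature factor, and counts per gene sum them. The exons also overlap those of a predicted gene on the opposite strand, Gm45346, over 896 bases, and reads from the pair cannot be told apart without strand.

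RefSeq, on GRCm38.p6, gives 7 windows of 250 bases before a start of Bdnf, 12 over the 5 members that have entries (Ntrk2, Ngfr, Bdnf, Ntf3 and Gfra1). They were searched on both strands for the T-box site AGGTGTGA, for its core GGTGTG, which lies within it, and for the cyclic AMP response element TGACGTCA and its shorter form TGACG, which lies within that element. Of the 12 windows, 10 held none of the 4. The 2 Bdnf windows with a match are shown with the match in capitals, since Tbr1 binds T-box sites and Bdnf is a known target of CREB, and that of Ntrk2 is shown as one without a match. All 3 are written 5′ to 3′ on the plus strand. In the Bdnf window that starts at 109692186 the match is the reverse complement of TGACG, and its first base lies 35 bases before the start. In the other it is GGTGTG, 73 bases before the start.
Bdnf chr2:109692186-109692435: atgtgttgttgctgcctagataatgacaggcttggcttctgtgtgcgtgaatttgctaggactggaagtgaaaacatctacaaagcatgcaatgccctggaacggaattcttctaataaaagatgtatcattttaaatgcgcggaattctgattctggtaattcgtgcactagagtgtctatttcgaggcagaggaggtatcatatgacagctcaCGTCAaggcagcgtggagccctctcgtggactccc
Bdnf chr2:109694159-109694408: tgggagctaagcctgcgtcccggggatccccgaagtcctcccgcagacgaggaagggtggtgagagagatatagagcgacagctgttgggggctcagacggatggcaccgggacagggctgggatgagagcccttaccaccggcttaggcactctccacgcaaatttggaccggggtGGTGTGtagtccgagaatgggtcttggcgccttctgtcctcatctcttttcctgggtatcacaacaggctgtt
Ntrk2 chr13:58806319-58806568: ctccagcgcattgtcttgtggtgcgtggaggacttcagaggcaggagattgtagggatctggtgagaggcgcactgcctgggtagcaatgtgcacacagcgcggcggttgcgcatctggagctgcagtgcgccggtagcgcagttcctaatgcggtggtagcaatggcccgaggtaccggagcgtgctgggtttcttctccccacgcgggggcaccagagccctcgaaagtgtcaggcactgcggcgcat
Among all 32851 windows of this length, 1.12% held AGGTGTGA, 16.3% GGTGTG, 1.55% TGACGTCA and 17.8% TGACG. A match describes letters only and is not a bound site.

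Ntf3 encodes NT-3, the ligand of TrkC, and lies on chromosome 6 from 126101412 to 126166910 on the minus strand. No library of either genotype held a read of it. A count of 0 allows up to 0.0180 CPM over the KO group and 0.0231 CPM over the WT group (3 counts of the summed total). These limits cover counting error only, as the reads carry no molecular identifiers. Ntf3 was not detectable at this depth, and no fold change is given.

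Ntrk2 encodes TrkB, the receptor of BDNF, and had the most reads of the 8 members. It lies on chromosome 13 from 58806569 to 59133970 on the plus strand. It had 92.3, 71.6, 103 and 134 CPM in KO animals a to d, against 109, 108, 106 and 98.3 CPM in WT animals a to d. The WT animals lay close together, inside the span of the KO animals, of which b was the lowest and d the highest. Ntrk2 averaged 100.1 ± 26.0 CPM in KO animals and 105 ± 4.78 CPM in WT animals (SD, n = 4 each), and the SD was 26.0% of the mean in KO and 4.54% in WT; this difference in spread was not tested. The log2 fold change was -0.07 ± 0.18 (SE), with a 95% interval that runs from 0.731-fold to 1.24-fold (edgeR with Benjamini-Hochberg adjustment, adjusted p = 0.984). Without KO animal b the log2 fold change was 0.060. The annotation gives full-length TrkB of 821 residues and truncated forms of 466 to 492 residues that lack the kinase, and a count per gene does not separate them.

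Ntrk3 encodes TrkC, the receptor of NT-3, on chromosome 7 from 78175959 to 78738012 on the minus strand. It had 62.5, 66.8, 37.3 and 55.7 CPM in KO animals a to d, against 65.4, 50.5, 78.8 and 54.5 CPM in WT animals a to d. KO animal c was the lowest and WT animal c the highest, and the other 6 animals were intermixed. Ntrk3 averaged 55.6 ± 12.98 CPM in KO animals and 62.3 ± 12.7 CPM in WT animals (SD, n = 4 each), a log2 fold change of -0.17 ± 0.21 (SE). The 95% interval ran from 0.646-fold to 1.23-fold (edgeR with Benjamini-Hochberg adjustment, adjusted p = 0.958). Like TrkB, TrkC has annotated forms with the kinase (825, 839 and 864 residues) and a truncated form (612 residues).

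Ngfr encodes p75, the receptor shared by all neurotrophins, on chromosome 11 from 95568818 to 95587735 on the minus strand. It had 0.356, 0.699, 6.43 and 2.22 CPM in KO animals a to d, against 12.2, 1.14, 0.174 and 0.847 CPM in WT animals a to d. Most animals were near or under 1 CPM, with WT animal a and KO animal c well above the rest of their genotypes. The log2 fold change was -0.57 ± 1.25 (SE), with a 95% interval of -3.29 to 2.16 (edgeR with Benjamini-Hochberg adjustment, adjusted p = 0.982), and without WT animal a it was 1.75. WT animal a had the highest sum of the astrocyte, vessel and microglia markers, at 61.3 CPM. Most of that sum came from the microglial genes Cx3cr1, C1qa and Aif1, with 22.2, 14.8 and 11.9 CPM, while the endothelial Cldn5 and Pecam1 had 7.25 and 5.12 CPM and Cdh5, Pdgfrb, Rgs5 and Gfap were at 0. Its sum of Müller glia and progenitor markers was 392 CPM, inside the WT range, with 157 CPM of Apoe, 125 CPM of Dkk3 and Rlbp1, Sox9 and Aqp4 at 0. KO animal c had the highest sums of the Müller glia and progenitor list and of the photoreceptor list, 769 and 1223 CPM. The part of these cells in the Ngfr level was not tested.

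Ret encodes the receptor kinase of the GDNF family, on chromosome 6 from 118151745 to 118197718 on the minus strand. It had 65.2, 43.0, 49.0 and 51.0 CPM in KO animals a to d, against 55.2, 53.6, 36.7 and 42.0 CPM in WT animals a to d. KO animal a was the highest and WT animal c the lowest, with the others intermixed. Ret averaged 52.0 ± 9.42 CPM in KO animals and 46.9 ± 8.98 CPM in WT animals (SD, n = 4 each), a log2 fold change of 0.15 ± 0.20 (SE). The 95% interval of the log2 fold change was -0.28 to 0.58 (edgeR with Benjamini-Hochberg adjustment, adjusted p = 0.960).

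Gfra2 encodes the coreceptor that prefers neurturin, on chromosome 14 from 70890120 to 70979838 on the plus strand. It had 7.35, 14.1, 12.4 and 13.7 CPM in KO animals a to d, against 10.6, 6.60, 9.75 and 7.12 CPM in WT animals a to d. KO animals b, c and d lay above all WT animals, while KO animal a lay within the WT span. Gfra2 averaged 11.9 ± 3.11 CPM in KO animals and 8.52 ± 1.96 CPM in WT animals (SD, n = 4 each), a log2 fold change of 0.48 ± 0.36 (SE) with a 95% interval of 0.815-fold to 2.39-fold. The edgeR test with Benjamini-Hochberg adjustment gave an adjusted p of 0.892. With the first library of each pair, beside the single libraries of the other animals, the log2 fold change was 0.67. With the second library of each pair in its place, it was 0.026.

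Gfra1 encodes the coreceptor that prefers GDNF, on chromosome 19 from 58235604 to 58455909 on the minus strand. It had 0, 0.753, 1.66 and 2.35 CPM in KO animals a to d, against 0, 0.673, 0 and 0.659 CPM in WT animals a to d. Its reads came from 5 of the 11 libraries, KO libraries 3, 5 and 6 and WT libraries 3 and 5. The log2 fold change of 1.82 ± 1.77 (SE) had a 95% interval of -2.04 to 5.67 (edgeR with Benjamini-Hochberg adjustment, adjusted p = 0.936), so neither direction is set. It was 2.95 with the first library of each pair and 0.19 with the second, each beside the single libraries of the other animals. The exons overlap those of a gene on the opposite strand, Gm16277, over 416 bases.

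**Figure D2:**
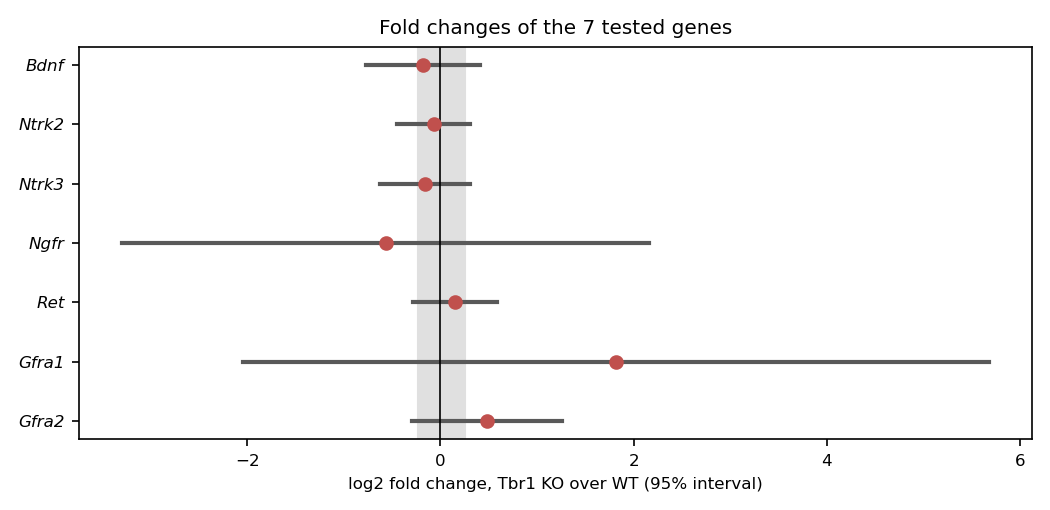
Log2 fold change of the 7 tested members, Tbr1 KO over WT, as points with bars for the 95% interval of the edgeR fit. The grey band holds the middle of all 13957 tested genes, from the lower quartile at -0.23 to the upper quartile at 0.25. Every interval takes in 0, and those of Ngfr and Gfra1 are the widest.

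To compare levels between genes, CPM were divided by the length of exon sequence in kilobases. In WT animals, Ret had 6.93 ± 1.33, Bdnf 6.53 ± 1.93 and Ntrk2 5.45 ± 0.248 CPM per kilobase (SD, n = 4), and the ranges of these 3 overlapped. Gfra2 with 2.41 ± 0.553 and Ntrk3 with 2.07 ± 0.420 CPM per kilobase came next and overlapped each other, and every WT animal was lower for both than any WT animal for the 3 leading genes. Ngfr followed at 1.05 ± 1.68 CPM per kilobase, or 0.209 without WT animal a, then Gfra1 at 0.0608 ± 0.0702 and Ntf3 at 0. Among 13398 tested genes with a length, the WT level of Ret stood at percentile 59.8, Bdnf at 58.3, Ntrk2 at 54.4, Gfra2 at 36.8, Ntrk3 at 33.8, Ngfr at 22.3 and Gfra1 at 0.888. In KO animals the order was the same, with 7.69 CPM per kilobase for Ret, 5.77 for Bdnf, 5.19 for Ntrk2, 3.36 for Gfra2, 1.84 for Ntrk3, 0.704 for Ngfr and 0.217 for Gfra1.

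The order within the leading genes depends on the length used. The exon union of Ntrk2 spans 19292 bases and that of Ntrk3 30170 bases. Per kilobase of the longest transcript, the WT level was 12.0 for Ntrk2, 9.52 for Bdnf, 8.59 for Ret, 3.16 for Ntrk3 and 2.45 for Gfra2. Ntrk2 then had every WT animal above those for Ret, and Ntrk3 came before Gfra2 with overlap, while the gap between Bdnf, Ntrk2 and Ret on the one side and Ntrk3 and Gfra2 on the other remained.

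**Figure D3:**
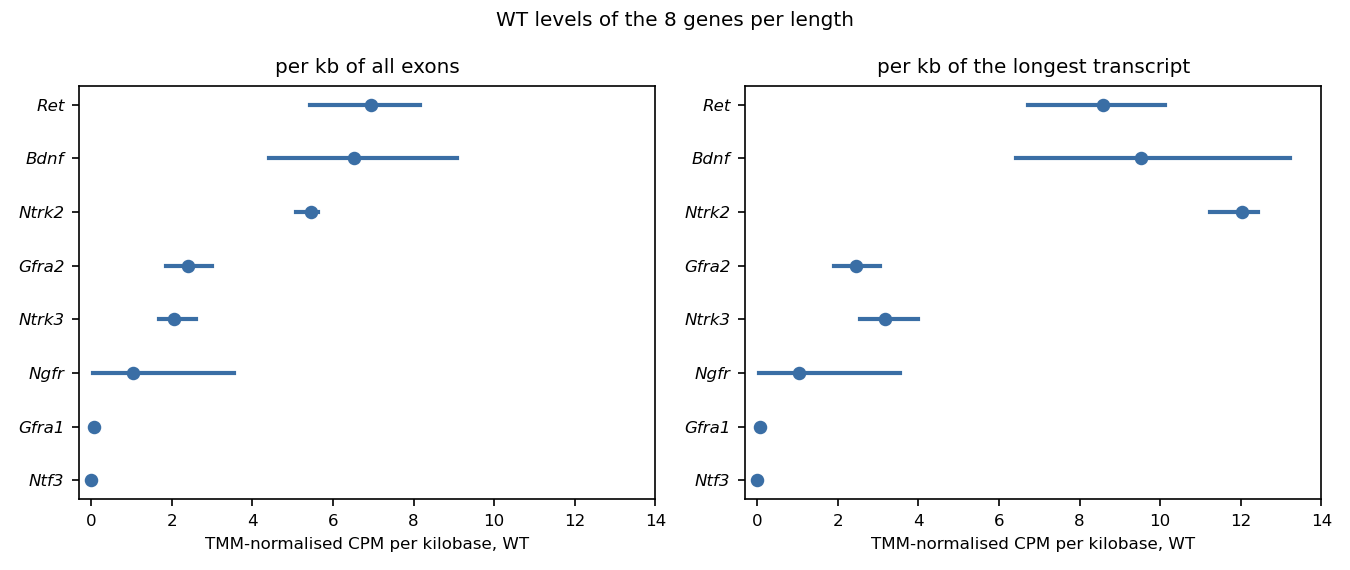
WT level of each member in TMM-normalised CPM per kilobase, with a point for the mean of 4 WT animals and a bar from the lowest to the highest animal, per kilobase of the exon union (left) and of the longest transcript (right). Ret, Bdnf and Ntrk2 lie above Gfra2 and Ntrk3 by either length, with Ntf3 at 0.

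Pools of the same animal show how far a level moves between samples of 100 cells. For Ntrk2 the second library differed from the first by -0.17 in KO animal a, 0.27 in KO animal b and -0.03 in WT animal b on a log2(CPM + 0.5) scale. For Ret these differences were 0.11, -0.18 and 0.18, so both receptors repeated closely. Ntrk3 differed by -0.22, -0.11 and 0.63, and Bdnf by 0.46, -0.30 and -0.19, so the widest differences of these well-counted genes were larger. Gfra2 had 4.19 CPM in the first library of WT animal b and 14.9 CPM in the second, a spread wider than that between the genotype means. Gfra1 had 42 counts in the first library of KO animal b and 0 in the second, and 0 and 26 counts in the libraries of WT animal b. Ngfr had 44 and 0 counts in the libraries of WT animal b. For Gfra1 and Ngfr, pools of the same animal thus ranged between no reads and some. WT library 3, the second of WT animal b, had the fewest counts of all, 8609845, against 31033784 in WT library 2. Its chi-square per gene, a measure of difference beyond sampling noise, was 64.2 against WT library 2 and 32.6 to 62.4 against the others. For WT library 2 this measure was lowest against WT library 3. Depth affects it.

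**Figure D4:**
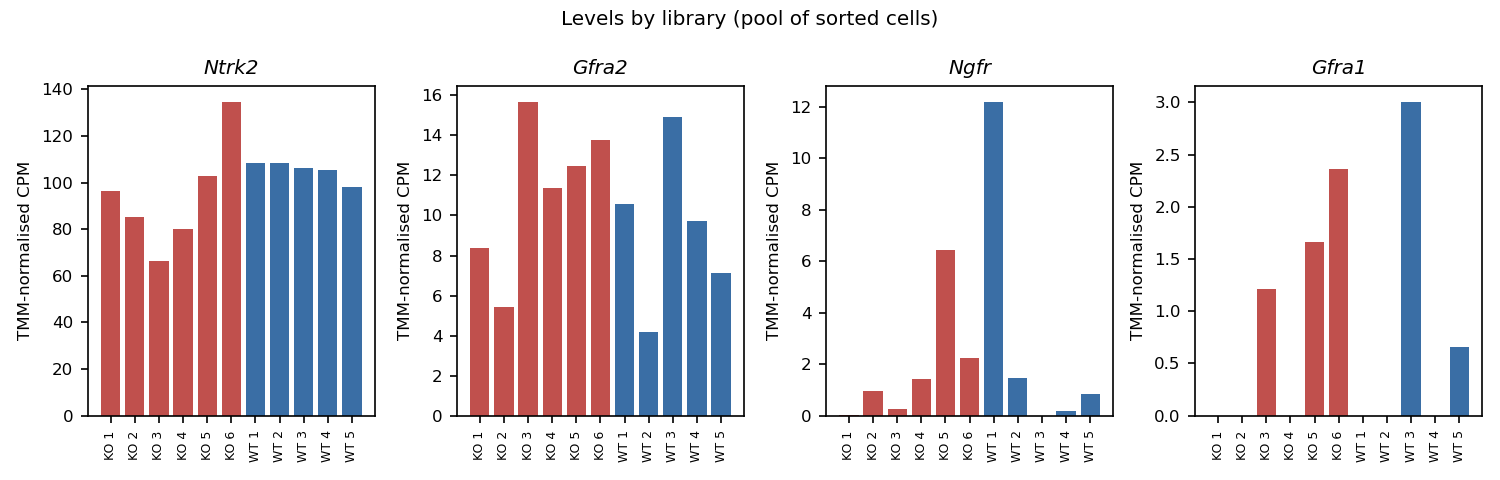
Level of Ntrk2, Gfra2, Ngfr and Gfra1 in each of the 11 libraries in TMM-normalised CPM, with 1 bar per library, Tbr1 KO libraries on the left in red and WT libraries on the right in blue. WT libraries 2 and 3, from the same animal, are level for Ntrk2 but stand at 4.19 and 14.9 CPM for Gfra2, and 6 of the 11 libraries have no bar for Gfra1. WT library 3 had the fewest counts of all libraries.

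For members with at least 16 CPM on average, the genes whose log2 level moved most alike over the 8 animals were sought among 7769 genes, as a description. For Ntrk2 these were Cbx5 (Pearson r = 0.97), Nfe2l2 (r = 0.93) and Ifngr1 (r = 0.92), and for Ntrk3 they were Fam131c (r = 0.96), Mob3a (r = 0.95) and Wdr4 (r = 0.95). For Bdnf they were Abhd17a (r = 0.97), Cox10 (r = 0.95) and Dmap1 (r = 0.94), and for Ret they were Pde6d (r = 0.94), Eefsec (r = 0.93) and Psme4 (r = 0.93). Between Ntrk2, Ntrk3, Bdnf and Ret themselves, r ran from -0.40 to 0.16, so no pair of members moved closely together.

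The wider pathway was described by 9 lists with 150 distinct genes, of which 133 were tested. By edgeR none was called, 10 of them (7.52%) had an unadjusted p under 0.05 and 6 (4.51%) showed no overlap between genotypes, close to the 7.09% and 5.06% of all tested genes. The median log2 fold change over the 133 was -0.01. DESeq2, which called 262 genes in all, called 4 of the listed genes, among them Gdnf, Lifr and Rap1b, and limma voom called 0.

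Of 11 other neurotrophin ligands and receptors, 9 were tested, with a median log2 fold change of -0.02. Ntf5, which encodes NT-4, had 4 counts in KO and 3 in WT. Sortilin (Sort1), which binds proneurotrophins with p75, averaged 81.7 CPM in KO animals and 83.1 CPM in WT animals, Lingo1, a p75 partner in the Nogo receptor complex, 180 CPM in KO and 199 CPM in WT, and Kidins220, a scaffold of Trk receptors, 218 CPM in KO and 238 CPM in WT. Slitrk5, a TrkB co-receptor, had 58.0 ± 1.38 CPM in KO animals and 76.8 ± 14.1 CPM in WT animals (SD, n = 4 each) with no overlap, and a log2 fold change of -0.40 ± 0.16 (SE; edgeR with Benjamini-Hochberg adjustment, adjusted p = 0.593).

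Of 10 other GDNF-family genes, 8 were tested, with a median log2 fold change of 0.06, and Gfra3 and Gfral had 0 counts in all libraries. The GFRα coreceptor with the most reads was Gfra4, which binds persephin, and whose exons overlap those of Mir6973b over 80 bases. It averaged 30.8 CPM per kilobase in KO animals and 26.7 ± 11.04 CPM per kilobase in WT animals (SD, n = 4), and its lowest WT animal, at 10.4, lay above the highest WT animal of each of the 8 members on this scale. Per kilobase of the longest transcript, its lowest WT animal was at 12.6 and overlapped Bdnf. Its log2 fold change was 0.21 ± 0.30 (SE; edgeR with Benjamini-Hochberg adjustment, adjusted p = 0.964). Gdnf itself had 1.54, 1.29, 1.78 and 0.438 CPM in KO animals a to d, against 2.30, 9.83, 3.66 and 10.3 CPM in WT animals a to d. All KO animals lay below all WT animals. The log2 fold change of -2.37 ± 0.76 (SE) did not pass the edgeR test with Benjamini-Hochberg adjustment (adjusted p = 0.444), and Gdnf is named here after its values were seen. Nrtn, which encodes neurturin, averaged 3.57 ± 3.31 CPM in KO animals and 0.392 ± 0.661 CPM in WT animals (SD, n = 4 each), with overlap (edgeR with Benjamini-Hochberg adjustment, adjusted p = 0.755). By animal it had 0.0890, 2.87, 8.06 and 3.26 CPM in KO animals a to d, against 0, 0.129, 0.0580 and 1.38 CPM in WT animals a to d. The sum of photoreceptor markers was 67.6, 294, 1223 and 312 CPM in KO animals a to d, against 72.7, 102, 138 and 365 CPM in WT animals a to d, so both were highest in KO animal c and, among WT animals, in d. The part of photoreceptor RNA in the Nrtn level was not tested. Ncam1, an alternative GDNF receptor, averaged 2489 CPM in KO animals and 2234 CPM in WT animals, Sdc3, a proteoglycan that binds GDNF, 263 CPM in KO and 294 CPM in WT, and Gas1, a relative of the coreceptors, 6.63 CPM in KO and 4.26 CPM in WT.

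Inside the cell, 23 of 25 adaptors of Trk and Ret were tested, with a median log2 fold change of -0.02, and none had an unadjusted p under 0.05. Grb2, which links receptors to Ras, averaged 119 CPM in KO animals and 115 CPM in WT animals, Crk 147 CPM in KO and 134 CPM in WT, Sh2b1 113 CPM in KO and 115 CPM in WT, and Dok5, an adaptor that binds Ret, 67.7 CPM in KO and 87.3 CPM in WT. Of 30 cascade enzymes, 29 were tested, with a median of 0.02. Among them Rap1b, a small GTPase of the sustained ERK response to Trk receptors, had 174 ± 18.5 CPM in KO animals and 116 ± 19.7 CPM in WT animals (SD, n = 4 each) with no overlap. Its log2 fold change was 0.59 ± 0.14 (SE; edgeR with Benjamini-Hochberg adjustment, adjusted p = 0.198, the lowest of all the lists). Nras averaged 231 CPM in KO and 263 CPM in WT, and Map2k2, a kinase that activates ERK, 164 CPM in KO and 162 CPM in WT.

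All 16 p75 partners were tested, with a median log2 fold change of -0.12. Necdin (Ndn), which binds p75, averaged 879 CPM in KO animals and 1148 CPM in WT animals (edgeR with Benjamini-Hochberg adjustment, adjusted p = 0.630), Maged1 1144 CPM in KO and 1279 CPM in WT, Arhgdia 401 CPM in KO and 443 CPM in WT, and Sqstm1 284 CPM in KO and 282 CPM in WT. Of 13 genes for proneurotrophin processing and secretion, 11 were tested, with a median of -0.16. The prohormone convertase Pcsk2 had 144 ± 9.32 CPM in KO animals and 173 ± 2.64 CPM in WT animals (SD, n = 4 each) with no overlap, and a log2 fold change of -0.26 ± 0.11 (SE; edgeR with Benjamini-Hochberg adjustment, adjusted p = 0.630). Carboxypeptidase E (Cpe), a sorting receptor for BDNF, averaged 3126 CPM in KO animals and 3369 CPM in WT animals, and Sorcs2 34.6 CPM in KO and 45.5 CPM in WT. The 17 genes for receptor trafficking and turnover were all tested, with a median of 0.10 and none with an unadjusted p under 0.05. Among them the ubiquitin ligase Nedd4 averaged 783 CPM in KO and 715 CPM in WT, Rab7 662 CPM in KO and 666 CPM in WT, Rab11a 433 CPM in KO and 394 CPM in WT, and Tsg101 383 CPM in KO and 357 CPM in WT.

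Of 16 ERK feedback and response genes, 14 were tested, with a median log2 fold change of -0.24, 5 of them positive and 9 negative. The immediate early gene Fos averaged 17.9 CPM in KO animals and 30.3 CPM in WT animals (edgeR with Benjamini-Hochberg adjustment, adjusted p = 0.661) and Egr1 33.3 CPM in KO and 26.3 CPM in WT. Vgf, a neurotrophin-inducible secreted protein, averaged 51.4 CPM in KO animals and 39.2 CPM in WT animals, and Spred2, an inhibitor of the Ras pathway, 45.8 CPM in KO and 39.1 CPM in WT.

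**Figure D5:**
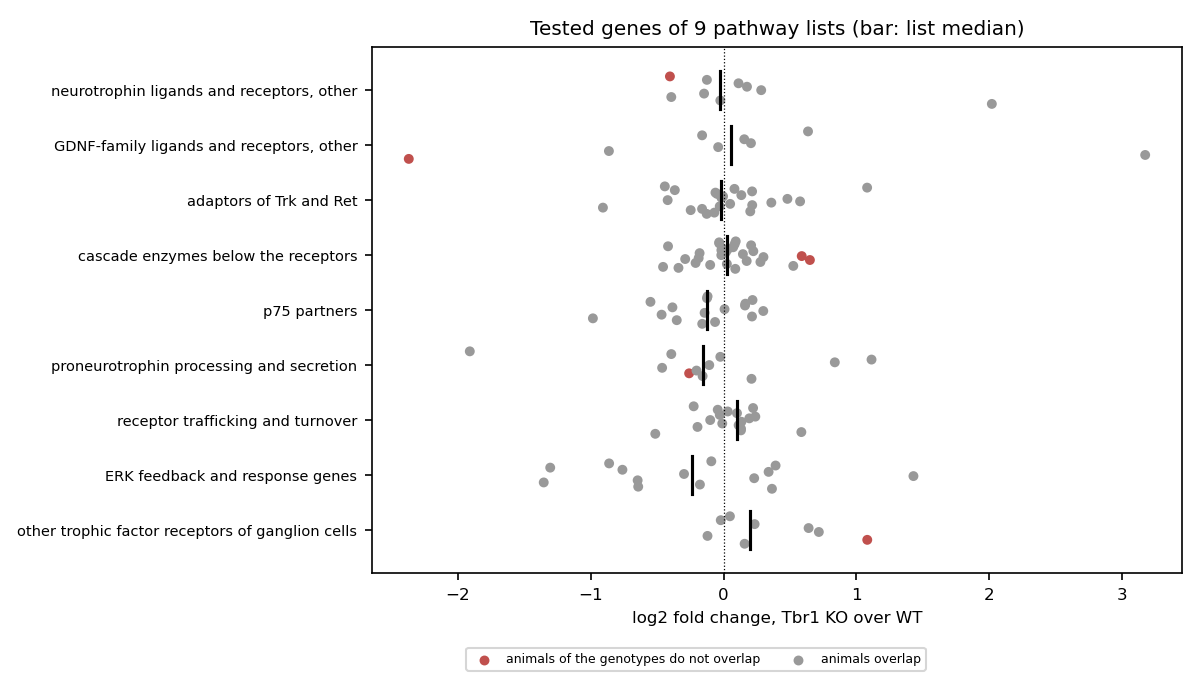
Log2 fold change, Tbr1 KO over WT, of each tested gene of 9 pathway lists, with 1 point per gene, a vertical bar for the median of the list and red for genes whose animals do not overlap between genotypes. The medians lie between -0.24 and 0.20, and the red points include Slitrk5, Gdnf, Rap1b, Pcsk2 and Lifr.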

How the data were processed

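The authors deposited 1 table of unnormalised read counts by gene symbol for each library, and per the labels' protocols each library was made with Smart-seq2 and Nextera XT. The submitters' processing notes name Trimmomatic 0.32, TopHat2 2.0.10, HTSeq 0.6.1 and the build mm10 (GRCm38), but not the annotation or whether strand was used in counting. Lines that name no gene were left out of totals (60.1% to 63.9% of listed reads fell in genes, 20.0% to 24.8% in no feature, 1.31% to 1.47% were ambiguous and 13.2% to 14.6% not unique). Closest libraries differed beyond sampling noise, so none was merged as a duplicate.

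Counts were summed per animal, filtered with filterByExpr (13957 genes kept, 7 of the 8 members), scaled by TMM and tested with edgeR 4.0.16 (robust quasi-likelihood, Benjamini-Hochberg, threshold 0.05) in R 4.3.3. The common biological coefficient of variation was 0.566. The SE is the log2 fold change divided by the square root of F. Alternatives were DESeq2 1.42.0, limma 3.58.1 (voom), other filters and scalings, libraries as samples, a replicate block and leaving out each animal. Lengths and positions came from GENCODE M21 (GRCm38).

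The members and lists were chosen with earlier results of these data known. Named beside the members are Tbr1, the 4 genes of each list with the highest mean CPM, any list gene past the threshold, and the 3 genes most like each member of at least 16 CPM. Values of some single list genes are not reported here.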

Additional observations from a re-analysis of the deposited data

Results flagged for a closer look

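In each group of 4 animals, an animal was noted where its gap to the nearest other exceeded Dixon's 95% critical share of the group's range. Of 84 groups over 43 genes, 5 were noted, and chance alone notes about 1 in 20. Ngfr in WT animal a was 12.2 CPM, against 0.174 to 1.14 CPM in the other WT animals. Kidins220 in the same animal was 327 CPM, against 203 to 220 CPM in the others. Pcsk2 was lowest there, at 169 CPM, against 173.9 to 174.4 CPM in the other WT animals. Maged1 in KO animal a was 1335 CPM, against 1077 to 1087 CPM in the other KO animals. Kit in WT animal d was 25.9 CPM, against 48.5 to 51.7 CPM in the other WT animals.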

How the results depend on the processing

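The count of changed members was 0 in the main comparison and in all 20 alternatives (only 4 members were tested with a filter at 16 CPM), and the lowest adjusted p of a member under any of them was 0.662, for Ntrk2 with the replicate block. The count of changed genes was 40, and it was 65 with a filter at 16 CPM, 262 by DESeq2, 74 by voom with the animal as a random effect and 84 with the 11 libraries as samples; the cause was not tested. It ran from 17 to 44 when each animal was left out in turn, with 22 without KO a, 17 without KO b, 25 without KO d and 18 without WT b. The log2 fold change of Ngfr turned to 1.12 with the replicate block and to 1.75 without WT a, that of Ntrk2 to 0.060 without KO b and that of Bdnf to 0.021 without WT b; leaving out each animal in turn gave -1.70 to 1.75 for Ngfr, -0.24 to 0.060 for Ntrk2 and -0.38 to 0.021 for Bdnf. The replicate block matched KO and WT libraries by their number alone. Deviations of same-numbered libraries correlated at 0.09, -0.10, -0.02, 0.08 and 0.13. Among them, 3 of 5 KO and 2 of 5 WT libraries correlated best with their own number, and the block gave 43 changed genes. Whether a shared number stands for a shared batch was not tested. The log2 fold change of Gfra1, 1.82 in the main comparison, was 0.0080 with the replicate block and 0.31 with the 11 libraries as samples. It was 0.19 with the second library of each pair and 2.95 with the first, each beside the single libraries of the other animals. The log2 fold change of Gfra2, 0.48 in the main comparison, was 0.23, 0.27, 0.026 and 0.67 under the same settings. The WT level of Gfra1 was 0.134 CPM per kilobase as a mean of the 5 WT libraries. Per kilobase of the longest transcript, the WT levels were 12.0 for Ntrk2, 3.16 for Ntrk3, 9.52 for Bdnf and 8.59 for Ret. Few reads limit Ntf3, Gfra1 and Ngfr.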

Other observations

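Receptors for other trophic factors that act on ganglion cells were described beside the members. Of 15 such genes, 8 were tested, with a median log2 fold change of 0.20, and edgeR called none. Lifr, the shared receptor of LIF and CNTF, had 53.1 ± 24.7 CPM in KO animals and 25.1 ± 3.02 CPM in WT animals (SD, n = 4 each), and every KO animal lay above every WT animal. By animal it had 36.6, 63.5, 83.0 and 29.4 CPM in KO animals a to d, where the sum of the Müller glia and progenitor markers was 531, 593, 769 and 478 CPM, in the same order. In WT animals a to d, Lifr had 24.6, 25.9, 21.3 and 28.6 CPM beside sums of 392, 470, 344 and 411 CPM. Much of each of these sums came from Dkk3 and Clu, the only markers of the list that were higher in every KO animal than in every WT animal. Dkk3 had 240 to 291 CPM in KO and 125 to 190 CPM in WT. Clu had 92.3 to 117 CPM in KO and 54.0 to 65.5 CPM in WT. Sfrp2, on the same list, was lower in every KO animal, and the other markers overlapped. The part of those cells in the Lifr level was not tested. Its log2 fold change was 1.08 ± 0.30 (SE; edgeR with Benjamini-Hochberg adjustment, adjusted p = 0.301), and Lifr was among the genes that DESeq2 called. Cntfr, the CNTF-binding subunit, averaged 39.5 CPM in KO animals and 35.4 CPM in WT animals, and Kit, the receptor of stem cell factor, 43.8 CPM in KO and 44.4 CPM in WT. Alk averaged 31.3 CPM in KO animals and 30.3 CPM in WT animals. Igf1r, named after its values were seen, averaged 33.9 CPM in KO animals and 20.6 CPM in WT animals, a log2 fold change of 0.72 ± 0.25 (SE; edgeR with Benjamini-Hochberg adjustment, adjusted p = 0.486).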
